A study of Mus musculus with 9 samples.

Results

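The comparison described here sets 3 libraries of TrkB-deleted mice with stereotypy against 3 of TrkB-deleted mice without it. These are 6 of the 9 samples of the series. Stereotypy is repetitive, invariant motor behavior. At postnatal day 28 the dorsal striatum was taken from these mice, all C57BL/6, and RNA bound to ribosomes was isolated. All mice carried Cre driven by the D1 dopamine receptor gene and RiboTag, a ribosomal protein that gains an HA tag in Cre-expressing cells. An antibody thus pulls down ribosomes of D1 medium spiny neurons (MSNs) and the RNA on them. Mice of the 6 libraries compared also carried floxed TrkB, which Cre deletes, and differed by label in behavior alone. The other 3 libraries (of D1-Cre-RT mice, with an unfloxed receptor) are the control. They are shown for position and used in the fit to share the estimate of spread. The labels call the samples biological triplicates and the cells enriched, not pure, and give no sex, litter, batch or behavioral score. Groups formed by behavior are not randomised, and p-values measure the spread between these samples. Genes with at least 1 CPM (counts scaled to a fixed library total) in at least 3 of the 6 libraries were tested, 13474 in all.

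TrkB, encoded by Ntrk2, is the receptor tyrosine kinase for brain-derived neurotrophic factor (BDNF), which reaches the striatum mainly from cortical axons. Bound TrkB recruits adaptors such as Shc and Frs2 and activates the Ras-ERK, phosphoinositide 3-kinase and phospholipase C gamma pathways, and ERK induces its own inhibitors of the Sprouty, Spred and Dusp families. D1 MSNs are the GABAergic neurons of the direct pathway, which promotes movement. They receive glutamate from cortex and thalamus and dopamine from the midbrain, and lie among D2 MSNs of the indirect pathway, interneurons and glia.

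Totals were 27103152 to 31117135 reads with stereotypy and 35702420 to 40578512 without, so each stereotypy library was shallower than each library without stereotypy. The first principal component of the 6 libraries held 51.8% of the variance and placed the groups apart (-28.4 to -16.1 with stereotypy, 18.1 to 27.5 without). On the second (19.1%) replicate 3 without stereotypy stood apart at -24.5, against 13.5 and 15.6 for the other libraries of its group. Xist, the RNA of the inactive X chromosome, was at 109 CPM in stereotypy replicate 3 and 17.9 CPM in replicate 3 without stereotypy, and at most 4.21 CPM in the other 7 libraries. Ddx3y, on the Y chromosome, was at 0.959 and 5.03 CPM in those 2 libraries and at 38.8 to 86.8 CPM in the other 7. Each compared group thus held 1 library with high Xist and low Ddx3y. Library levels also followed the GC content of the transcript. Across genes the rank correlation of a library's deviation with GC was -0.28, -0.39 and -0.51 with stereotypy, 0.61, 0.52 and 0.052 without, and -0.24, 0.23 and -0.067 in the controls. A fit with a smooth trend over GC and length removed from each library was therefore added, and another with a covariate for markers of other neurons (cortical neurons, interneurons and D2 MSNs), both chosen after seeing the data. For called genes picked by the naming rule, either value is given below wherever it moved the difference by over 1.5 times. For most other called genes these values are not given.

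Of 13474 genes, 1414 (10.5%) passed an adjusted p of 0.05 (limma, Benjamini-Hochberg). With stereotypy 914 (6.78%) were higher and 500 (3.71%) lower, with median log2 differences of 0.58 and -0.50 against 0.016 over all tested genes. The shares of 10.5%, 6.78% and 3.71% are the background for the counts of called list members below. Differences are on the log2(CPM + 1) scale, stereotypy minus no stereotypy, and understate the change of low genes. A difference of at least 1, a doubling, was reached by 88 genes called higher and 89 called lower. The libraries of both groups did not overlap for 5195 genes (38.6%), among them 1412 of the called genes. With median-of-ratios rescaling in place of the library total the split became 702 higher and 711 lower, which took the share of higher calls from 64.6% to 49.7%. A fit with the mean standardised log2 level of the glial and vascular markers as a covariate gave 99 and 316 (23.9% higher). The quasi-likelihood test of edgeR on the recovered reads called 1347 genes, 791 higher and 556 lower, of which 1265 were shared (89.5% of the limma calls and 93.9% of the edgeR calls).

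Leaving out any of 4 of the 6 TrkB-deleted libraries ended all calls or all but 1. Without stereotypy replicate 3, or without replicate 1 or 2 of the other group, 0 genes were called (2834, 2889 and 3052 at an unadjusted p under 0.05). Without stereotypy replicate 2 only the cyclin Ccnd2 was called (3247 at an unadjusted p under 0.05), and without stereotypy replicate 1 the count was 813. Without replicate 3 of the no-stereotypy group it was 1213. The count was 0 with the other-neuron covariate (3576 at an unadjusted p under 0.05), and 0 when replicate 3 was left out of both groups (3061), a fit also chosen after seeing the data. Every called gene kept its direction in each of these fits, and in those with another scaling. This holds for every gene described as risen or fallen below, and is not repeated there. In 1412 of the 1414 called genes the groups did not overlap. For these, leaving out libraries could not change the direction, so the kept direction is no test of stability there. The plot of all tested genes shows both arms of the comparison.

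**Figure D1:**
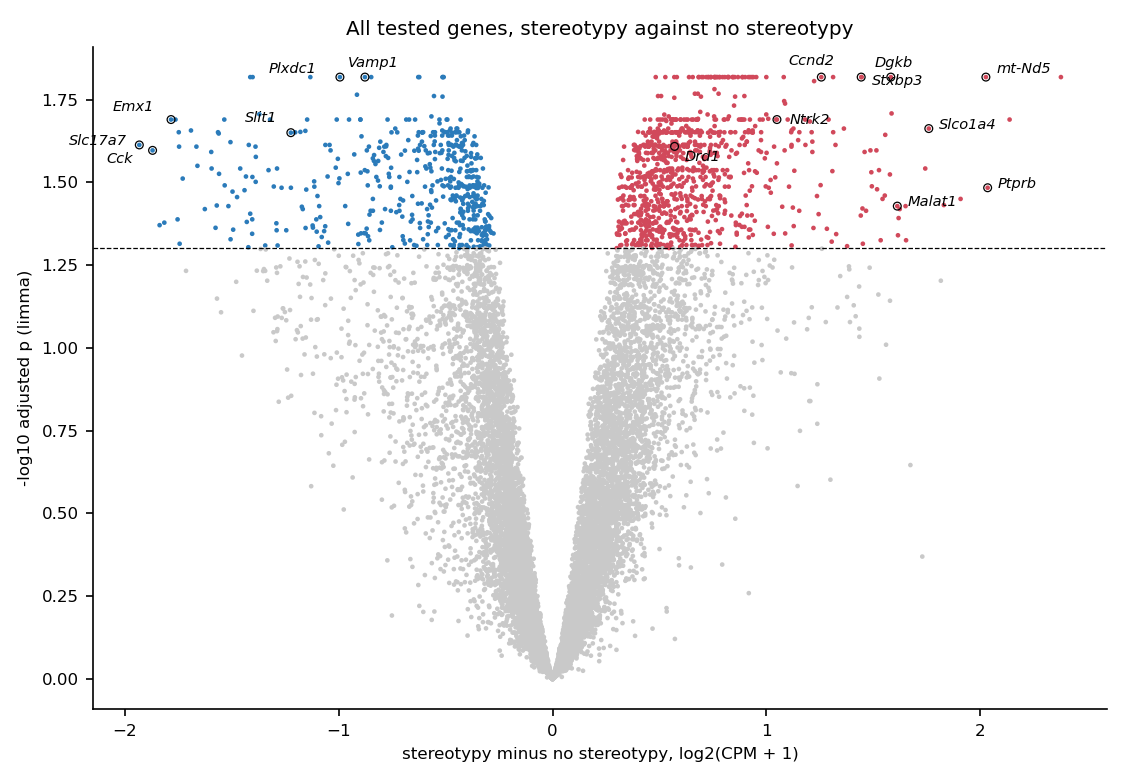
Each point is 1 of 13474 tested genes, with the log2 difference between stereotypy and no stereotypy on the x axis and the -log10 adjusted p of limma on the y axis. The dashed line marks an adjusted p of 0.05, above which 914 genes are higher (red) and 500 lower (blue), and circles mark genes named in the text.

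The targeted gene was low in both groups. Ntrk2 (ENSMUSG00000055254, GRCm38 chromosome 13, 58806569 to 59133970) was at 34.3, 43.9 and 40.7 CPM with stereotypy, at 23.4, 14.1 and 19.2 CPM without, and at 319, 385 and 487 CPM in the controls. The 3 groups did not overlap. The difference between the TrkB-deleted groups was 1.05 (SE 0.19, limma adjusted p = 0.0204), and 0.91 with the GC trend removed (adjusted p = 0.0641). With the glial and vascular covariate it was 0.71 (limma adjusted p = 0.111), and with the other-neuron covariate 1.30. The part of Ntrk2 RNA from cells other than D1 MSNs was not tested. Among 25 tested genes of TrkB and neurotrophin signalling 2 rose, 1 fell and 22 did not pass, with a median of 0.08. The share called was near the 10.5% of all tested genes. Frs2, the adaptor that links the receptor to the Ras-ERK pathway, was at 26.6, 27.5 and 29.1 CPM with stereotypy against 18.1, 17.7 and 19.9 CPM, a rise of 0.56 (0.35 with the trend removed). The ligand Bdnf, named after its values were seen, was at 0.59 to 1.99 CPM with stereotypy and at 2.22, 1.76 and 10.6 CPM without, overlapping, and did not pass (-0.98, adjusted p = 0.31). The low-affinity receptor Ngfr and the related receptor Ntrk3, also named after seeing them, stood at -0.23 and 0.28 and did not pass either.

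Some markers of cells other than D1 MSNs passed the test. All those of other neurons that passed were lower with stereotypy, and those of astrocytes, microglia and oligodendrocyte precursors that passed were higher, while no oligodendrocyte marker passed. In such enriched RNA, the number of other cells, their RNA per cell and its carry-over into the pull-down cannot be told apart. Of 11 tested markers of cortical excitatory neurons 2 fell and 0 rose, with a median of -1.01 and summed levels over 12 markers of 355 to 505 CPM with stereotypy, 808 to 1581 CPM without and 510 to 1039 CPM in the controls. Slc17a7, the vesicular glutamate transporter of cortical neurons (chromosome 7, 45163949 to 45176142), was at 208, 199 and 117 CPM with stereotypy against 506, 475 and 1140 CPM, highest in the library that stood apart on the second component. It fell by 1.93 on the log2 scale (SE 0.41, limma adjusted p = 0.0244), the largest fall among the named genes, by 1.53 to 2.16 when a library was left out and by 0.70 with the other-neuron covariate. Emx1, a cortical transcription factor, was at 2.83, 2.15 and 1.22 CPM against 7.37, 8.12 and 13.3 CPM, a difference of -1.78 (-0.89 with that covariate). With the glial and vascular covariate Slc17a7 stood at -2.90. None of the 12 cortical markers was at 0 in all 6 libraries, and Neurod1 was under 1 CPM in each.

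Striatal interneuron markers lay lower as well. Of 14 tested members all were below 0, with a median of -0.92, and 1 passed. This was Slc18a3, the vesicular acetylcholine transporter, at 0.358, 0.45 and 0.48 CPM with stereotypy against 2.17, 3.42 and 2.86 CPM (-1.40, adjusted p = 0.0409, -0.52 with the other-neuron covariate). Chat, the enzyme that makes acetylcholine, was at 2.15, 1.64 and 2.58 CPM against 7.0, 10.4 and 10.5 CPM without overlap and did not pass (-1.71, adjusted p = 0.058). D2 MSN markers followed the same pattern, with 2 of 7 lower, 0 higher, a median of -1.23 and summed levels of 306 to 500 CPM with stereotypy against 718 to 1274 CPM without. The control libraries were at 511, 687 and 1578 CPM, from just above the stereotypy range to above the range without it. Plxdc1 was at 8.20, 8.16 and 6.60 CPM against 14.2, 16.1 and 18.5 CPM, a difference of -0.99 (SE 0.16, limma adjusted p = 0.0152, -0.79 with the trend removed and -0.65 with the covariate). The kainate receptor Grik3 was at 56.2, 67.7 and 40.4 CPM against 107, 105 and 206 CPM, a difference of -1.29 that was -0.16 with the covariate and -2.08 with the glial and vascular one. The defining D2 genes did not pass, the D2 receptor Drd2 at -1.15 (adjusted p = 0.061), the adenosine receptor Adora2a at -1.29 (0.059) and the enkephalin precursor Penk at -1.23 (0.054). Drd2 was nonetheless lower in every stereotypy library (18.04 to 29.6 CPM) than in any library without stereotypy (44.7 to 59.3 CPM). With a covariate built from the markers of cortical neurons, interneurons and D2 MSNs, the medians of these lists were -0.11, 0.17 and -0.25, which that covariate tends to bring about, since it holds the same genes.

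Several glial and vascular markers were higher. Of 14 astrocyte markers 4 rose and 0 fell (median 0.50), with summed levels of 854 to 904 CPM with stereotypy, 586 to 777 CPM without and 659 to 698 CPM in the controls. Among the risen markers were the glutamate transporter Slc1a3 (0.97), the connexin Gja1 (0.82) and, named after its values were seen, the bicarbonate transporter Slc4a4 (0.64). With the glial and vascular covariate, which holds such markers, Slc1a3 and Gja1 stood at 0.54 and 0.47. Gfap, a defining astrocyte filament, was at 3.62 to 3.87 CPM with stereotypy and 2.55 to 5.22 CPM without, with a difference of 0.02. Of 8 tested microglia markers 2 rose, Csf1r (6.30, 6.78 and 6.27 CPM against 3.23, 2.69 and 2.07 CPM) and P2ry12 (0.80, 0.46 with the trend removed), with a median of 0.52. Of 11 tested vascular markers 3 rose and 1 fell (median 0.84), but the summed level over the list was 345 to 423 CPM with stereotypy against 401 to 446 CPM without, overlapping. Slco1a4, an endothelial transporter, was at 6.16, 9.83 and 6.64 CPM against 2.40, 0.924 and 1.33 CPM, and Flt1 and Ly6c1 rose with it, while Bsg fell by 0.30 (0.07 with the trend removed). Stereotypy replicate 2 was the highest library for Flt1 at 23.2 CPM, against 7.63 and 8.63 CPM in the rest of its group, and the difference for Flt1 was 1.62 (0.86 with the glial and vascular covariate). Of 6 oligodendrocyte precursor markers 1 rose, the matrix proteoglycan Vcan (0.85, 0.53 with the trend removed). None of 12 oligodendrocyte markers passed in limma or in edgeR (1 at an unadjusted p under 0.05 in limma), with summed levels of 1227 to 2185 CPM with stereotypy and 788 to 1809 CPM without. In both tools none passed among 5 markers of choroid plexus and ependyma (0 unadjusted) or 2 of blood (0 unadjusted). The part of RNA from other cells in the results above and below was not tested. The plot of summed levels sets the marker lists beside the other lists.

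**Figure D2:**
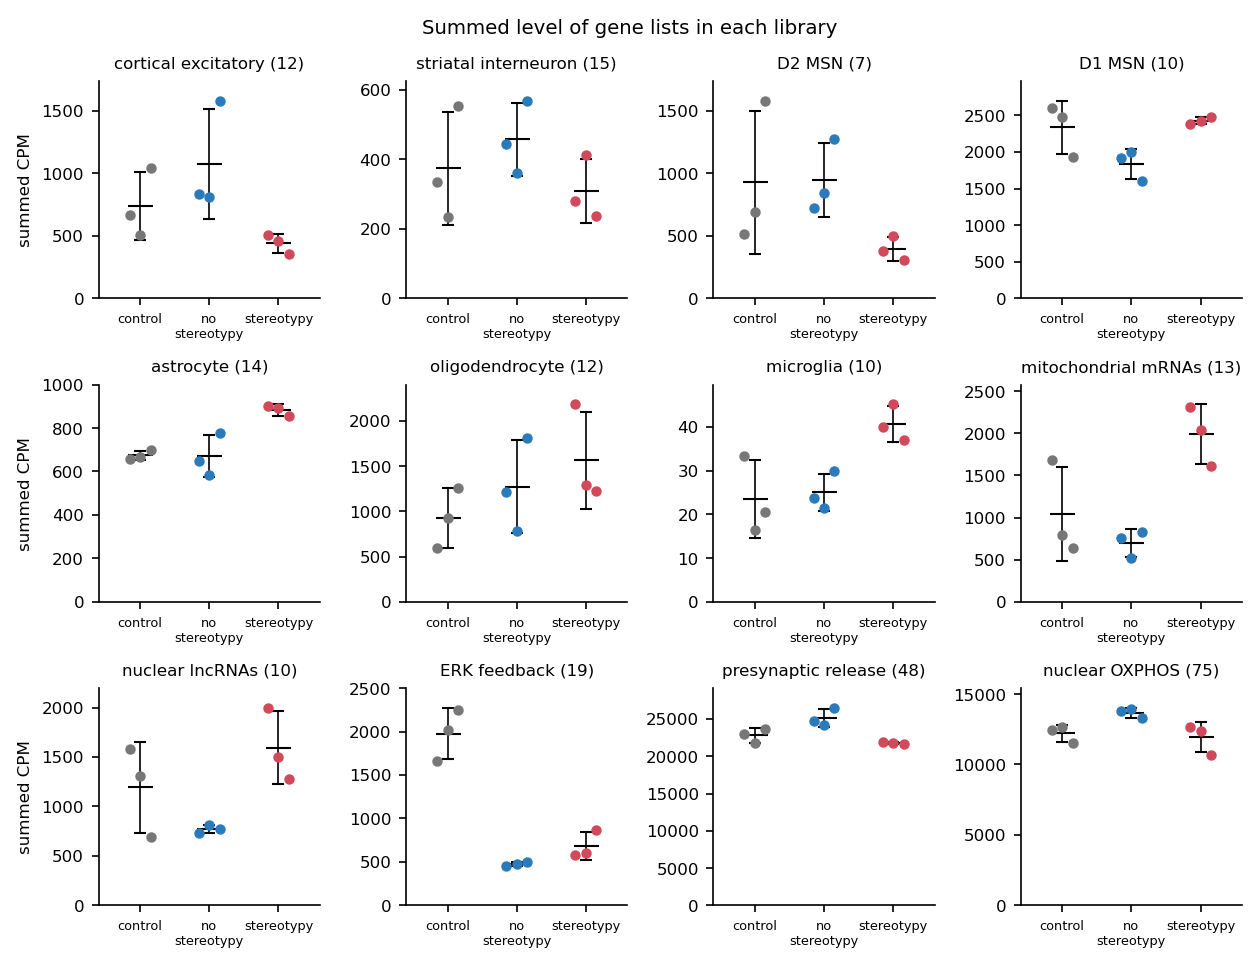
Summed CPM of 12 gene lists (y axes from 0, number of genes in brackets) in each of the 3 libraries of the control, no stereotypy and stereotypy groups, with mean and SD as bars. Cortical and D2 MSN sums are lower in all 3 stereotypy libraries than in all 3 without, and D1 MSN, astrocyte, microglia, mitochondrial and nuclear RNA sums are higher.

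Of 10 markers of the targeted D1 MSNs 2 rose with stereotypy and 0 fell. Drd1, the D1 receptor and the driver of Cre, was at 864, 841 and 955 CPM with stereotypy and at 627, 655 and 515 CPM without, with controls at 866, 865 and 684 CPM. The TrkB-deleted groups did not overlap, and the difference was 0.57 (SE 0.12, limma adjusted p = 0.0246), 0.46 with the trend removed and 0.27 with the other-neuron covariate. Slc35d3, which takes part in D1 receptor trafficking, rose from 99.7, 81.0 and 66.7 CPM to 110, 129 and 150 CPM. The other 8 D1 markers did not pass, and the median was 0.48. Among them the peptide precursors differed, with Tac1 at 561 to 625 CPM against 348 to 415 CPM and Pdyn at 273, 346 and 286 CPM against 282, 367 and 298 CPM, the latter overlapping. Genes shared by D1 and D2 MSNs rose in 7 of 24 and fell in 0 (median 0.23). The transcription factor Foxp1 was at 749, 801 and 857 CPM with stereotypy and at 550, 516 and 540 CPM without, a rise of 0.58 (SE 0.09, limma adjusted p = 0.0152, 0.36 with the trend removed). Foxp2 and the scaffold Strn rose by 0.58 and 0.57 (0.30 and 0.32 with the trend removed). In striosome and matrix markers 2 of 11 rose and 1 fell. The matrix marker Calb1, a calcium buffer, was at 240, 240 and 286 CPM against 159, 180 and 124 CPM (0.74), yet at 0.28 with the trend removed. Id4 stood at 0.37 (0.15 with the trend removed) and the semaphorin Sema5b at -0.66 (-0.35 with the other-neuron covariate).

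ERK feedback targets are genes whose transcription the kinase drives. Of 17 tested members 5 rose, 0 fell and 12 did not pass, a share of called members above the background of 6.78%, and the median was 0.20 (0.44 with the trend removed). Ccnd2, cyclin D2 (chromosome 6, 127125162 to 127152193), was at 77.6, 59.5 and 91.5 CPM with stereotypy, at 34.9, 26.9 and 31.3 CPM without and at 222, 175 and 208 CPM in the controls. The stereotypy libraries thus lay between the other groups without overlap, at 37.8% of the control mean against 15.4% without stereotypy. The difference was 1.26 (SE 0.16, limma adjusted p = 0.0152), and 1.12 with the trend removed (0.0438). Spred1, an inhibitor of Ras-ERK signalling, was at 109, 119 and 213 CPM against 68.6, 63.6 and 63.1 CPM, with controls at 220 to 257 CPM. Its highest library was stereotypy replicate 3, and without that library the difference was 0.80 in place of 1.1. Dusp6, the phosphatase that inactivates ERK, was at 28.1, 39.3 and 56.0 CPM against 17.7, 25.3 and 15.7 CPM (1.01, 1.0 with the trend removed). Spry2, a Sprouty inhibitor, and the transcription factor Pou3f1, both named after their values were seen, rose by 0.88 and 0.71. Vgf, a peptide precursor induced by neurotrophins and named after seeing it, was at 109, 134 and 176 CPM against 117, 146 and 162 CPM, with controls at 542 to 930 CPM, and the TrkB-deleted groups overlapped, as they did for Etv5, a transcription factor also named after seeing it. Summed over 19 genes, the levels were 577 to 872 CPM with stereotypy, 454 to 496 CPM without and 1658 to 2248 CPM in the controls.

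Immediate early genes, which neuronal activity induces, passed in 2 of 26, both higher, a share near the background of 6.78%, with a median of 0.41. The nuclear receptor Nr4a3 was at 19.5, 33.2 and 43.2 CPM against 9.56, 17.2 and 11.8 CPM (1.22), and Klf4 was at 1.25 to 2.38 CPM against 0.246 to 0.75 CPM. Fos and Arc, named after their values were seen, overlapped between the groups and did not pass, with Fos at 6.77, 17.8 and 23.98 CPM against 3.98, 9.05 and 5.72 CPM. Leaving out a library moved the list's median between 0.16 and 0.65. Of 19 clock genes 5 rose and 0 fell. Per2, a repressor of the clock, was at 16.8, 17.4 and 29.1 CPM against 11.9, 10.9 and 8.55 CPM, with controls at 39.8 to 53.8 CPM (0.91, SE 0.21, limma adjusted p = 0.0277). Its difference with the trend removed was 1.0. Rora, Nr1d2 and, named after seeing them, Clock and Hlf rose by 0.33 to 0.67, with Rora going from 0.67 to 0.27 and Nr1d2 from 0.49 to 0.23 with the trend removed, while Dbp and Per3 overlapped. The labels give no time of day. None of 12 glucocorticoid-induced genes passed in limma or in edgeR (4 at an unadjusted p under 0.05 in limma). None of 5 sex-linked transcripts passed in either tool (0 unadjusted).

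**Figure D3:**
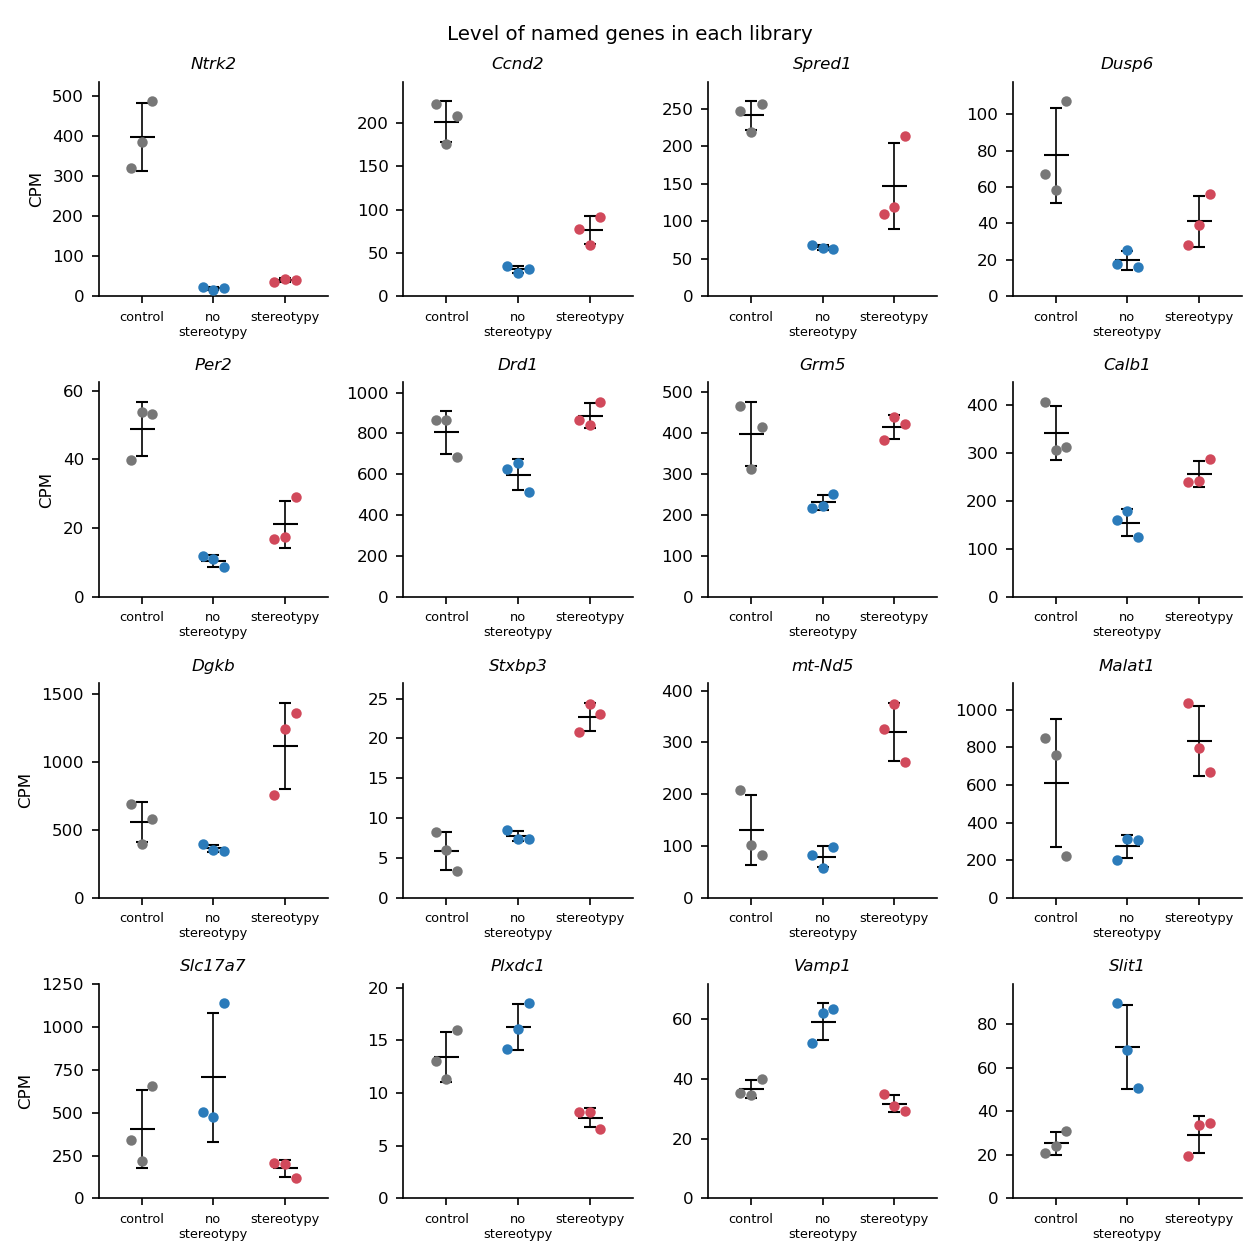
CPM (y axes from 0) of 16 genes in the 3 libraries of the control, no stereotypy and stereotypy groups, with the mean and SD as bars. In Ccnd2 and Per2 the stereotypy libraries lie between the other groups, while in Stxbp3 and Dgkb they lie above both and in Slit1 and Vamp1 the libraries without stereotypy lie above both.

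Receptors for the transmitters of the striatum moved in both directions. Of 30 glutamate receptor genes 3 rose and 3 fell. Grm5, the metabotropic receptor mGluR5, was at 381, 438 and 421 CPM with stereotypy, at 217, 222 and 252 CPM without and at 466, 313 and 415 CPM in the controls, so that the libraries without stereotypy lay below all others. The difference was 0.84 (SE 0.13, limma adjusted p = 0.0152), and 0.53 with the trend removed. Gria2, the AMPA receptor subunit that limits calcium entry, was at 1046, 1074 and 1272 CPM against 698, 762 and 816 CPM (0.57), but at 0.01 with the trend removed. Its transcript is among the GC-poor ones, at 36.8% GC. Grik2 went from 0.47 to -0.03 in the same way. The kainate receptors Grik3 and Grik4 differed by -1.29 and -1.01, by -1.26 and -0.99 with the trend removed and by -0.16 and -0.38 with the other-neuron covariate. The AMPA receptor auxiliary protein Cnih2 differed by -0.33 (-0.08 with the trend removed). Of 23 GABA synapse genes the receptor subunits Gabra2, Gabra4 and Gabrg3 rose by 0.78, 0.61 and 0.53, and 0 fell. With the trend removed these were 0.36, 0.37 and 0.20, and the median of the list went from 0.22 to 0.03.

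Among 37 genes of dopamine and cAMP signalling 5 rose and 2 fell. Besides Drd1 the phosphodiesterase Pde7b (301, 327 and 360 CPM against 230, 258 and 211 CPM) and the transcription factor Creb1 (59.1, 61.3 and 59.7 CPM against 35.1, 36.1 and 48.1 CPM) rose by 0.50 and 0.60, as did, named after seeing them, Pde10a and Prkar2b by 0.47 each. With the trend removed Pde7b stood at 0.23 and Creb1 at 0.18, and with the other-neuron covariate Creb1 stood at 0.92. The adenylyl cyclase Adcy2 fell by 1.46, from 32.5, 30.6 and 59.4 CPM to 14.9, 15.4 and 10.8 CPM, and the difference was -0.46 with the other-neuron covariate. Prkar1b, a regulatory subunit of protein kinase A, differed by -0.47 (-0.28 with the trend removed and -0.28 with the covariate). In the list of muscarinic, serotonin, opioid and cannabinoid receptors 2 of 17 rose. Htr2c, the serotonin 2C receptor, was at 73.0, 99.1 and 93.1 CPM against 54.9, 56.5 and 57.5 CPM (0.63, 0.37 with the trend removed), and Htr1b, a presynaptic inhibitory receptor, was at 81.3, 88.4 and 117 CPM against 62.6, 67.5 and 45.7 CPM (0.70). The muscarinic receptor Chrm3 differed by -1.42, and by -0.35 with the other-neuron covariate.

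Ion channel genes were called in both directions. Of 47 potassium channel genes 5 rose and 5 fell (5 and 9 in edgeR). The inward rectifier Kcnj2 (Kir2.1), which holds MSNs near their resting potential, was at 61.7, 64.4 and 88.0 CPM with stereotypy, 31.1, 41.8 and 40.8 CPM without and 70.0 to 91.1 CPM in the controls (0.89, 0.58 with the trend removed). Kcna4 and Kcnd2, which carry fast inactivating current, rose by 0.58 and 0.55 (Kcnd2 by 0.35 with the trend removed), and, named after seeing them, Kcnn3 and Kcnab1 by 0.52 and 0.40. Kcnj6 and Kcnj9, subunits of channels gated by G proteins, differed by -1.22 and -0.68, and the leak channel Kcnk3 by -0.71. With the other-neuron covariate these were -0.41, -0.42 and -0.27. Kcnn1 and Kcnab2, named after seeing them, fell by 0.66 and 0.48. Of 28 sodium and calcium channel genes 5 rose and 2 fell. Scn3a was at 56.0, 64.9 and 91.4 CPM against 37.1, 40.1 and 46.9 CPM, Scn9a and the calcium release channel Ryr1 rose by 0.91 and 0.92 (with the trend removed, 0.39 for Scn3a and 0.57 for Scn9a), and Ryr3 and Cacnb4, named after seeing them, rose as well. Cacna1g, a T-type calcium channel, differed by -1.56, and by -0.48 with the other-neuron covariate.

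Presynaptic release genes were called lower more than higher, 7 against 3 of 48 (11 against 3 in edgeR), and 35 of the 48 lay below 0 (median -0.19). Vamp1, a vesicle SNARE (chromosome 6, 125215551 to 125245964), was at 34.9, 31.0 and 29.2 CPM with stereotypy against 52.1, 62.0 and 63.5 CPM, with controls at 34.7 to 40.1 CPM. It fell by 0.88 (SE 0.11, limma adjusted p = 0.0152), and by 1.01 with the trend removed (0.014). The syntaxin Stx1a (-1.0) and the complexin Cplx3 (-1.06) also fell, standing at -0.36 and -0.25 with the other-neuron covariate. The vesicle protein Syp fell too, named after its values were seen, at 1763, 1807 and 1611 CPM against 2245, 2307 and 2895 CPM. Stxbp3, a partner of syntaxins in membrane fusion (chromosome 3, 108793176 to 108840526), rose from 8.45, 7.34 and 7.37 CPM to 20.8, 24.3 and 23.0 CPM, with controls at 8.18, 5.91 and 3.37 CPM. All 3 stereotypy libraries lay above the other 6, and the rise was 1.44 (SE 0.22, limma adjusted p = 0.0152, 1.19 with the trend removed, 1.39 to 1.503 when a library was left out). The priming factor Unc13c and the vesicle protein Syt4 rose by 0.90 and 0.70 (Syt4 by 0.42 with the trend removed). Postsynaptic scaffolds passed in 2 of 28, Dlg1 (0.41, 0.18 with the trend removed) and Dlgap4 (-0.43, -0.24), below the background share of 10.5%. Of 18 tested genes linked by mutation to repetitive behavior or grooming in mice, the share called was near the 10.5% over all genes. In that list 2 rose and 0 fell. These were the adhesion proteins Nlgn1 (111, 125 and 129 CPM against 86.2, 86.7 and 83.6 CPM) and Cntnap2, with rises of 0.50 and 0.36 that were 0.01 and 0.09 with the trend removed and 0.31 and 0.21 with the other-neuron covariate. Dlgap3, Shank3, Slitrk5 and Slc1a1 of that list, named after seeing them, differed by -0.26, -0.04, 0.19 and 0.23 and did not pass.

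Axon guidance genes were called lower in 8 of 62 and higher in 1, with a median of -0.24. Slit1, a repellent ligand (chromosome 19, 41600257 to 41743665), was at 19.7, 33.8 and 34.5 CPM with stereotypy, 89.7, 68.3 and 50.8 CPM without and 20.9, 23.9 and 30.9 CPM in the controls. The libraries without stereotypy stood above all others, and the fall with stereotypy was 1.22 (SE 0.25, limma adjusted p = 0.0224, 1.06 with the trend removed and 1.23 with the other-neuron covariate). Its receptor Robo2 was at 214, 233 and 241 CPM against 179, 168 and 154 CPM, a rise of 0.46 (0.13 with the trend removed). The receptor Ephb2 and the ligand Sema4a differed by -1.0 and -0.78 (-0.44 and -0.36 with the other-neuron covariate). Synaptic adhesion genes rose in 7 of 54 and fell in 5, with Il1rapl1 (0.90), Flrt3 (0.78) and Slitrk4 (0.74) leading the rises and Pcdh8 (-1.05), Cadm4 (-0.55) and Lrrc4b (-0.42) the falls. With the trend removed these were 0.33 for Il1rapl1, 0.55 for Flrt3, 0.11 for Slitrk4, -0.30 for Cadm4 and -0.17 for Lrrc4b, and the median of the list went from 0.18 to -0.01. With the other-neuron covariate Pcdh8 stood at -0.34 and Cadm4 at -0.35. Of 37 neuropeptide and receptor genes 7 fell and 1 rose. Cck, cholecystokinin (chromosome 9, 121489824 to 121495694), was at 23.8, 19.99 and 12.1 CPM against 60.7, 53.6 and 97.7 CPM, a fall of 1.87 (1.67 with the trend removed, 0.74 with the other-neuron covariate). The neurotensin receptor Ntsr1 was at 4.23, 5.08 and 3.28 CPM against 13.2, 10.6 and 30.4 CPM (-1.75, -0.73 with the covariate), and its relative Ntsr2 rose by 0.64. The precursor Trh differed by -1.32 (-0.87 with the covariate). Both Cck and Ntsr1 are also made by cortical neurons.

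Mitochondrially encoded mRNAs, which are translated on mitochondrial and not on tagged cytosolic ribosomes, were the list with the largest median, 1.74. All 7 tested of 13 were called higher, the other 6 being listed at or close to 0. mt-Nd5, a subunit of complex I, was at 326, 374 and 262 CPM with stereotypy, 82.8, 56.9 and 97.5 CPM without and 209, 102 and 81.6 CPM in the controls. The difference was 2.03 (SE 0.30, limma adjusted p = 0.0152), 1.63 with the trend removed (0.0566). Summed levels were 1618 to 2317 CPM with stereotypy against 516 to 829 CPM without, and control replicate 1 (1679 CPM) lay in the stereotypy range while the other controls lay at 643 and 793 CPM. Of 72 nuclear-encoded respiratory chain subunits 6 fell and 1 rose, with 55 below 0 and a median of -0.21 (-0.15 with the trend removed). The share called in either direction was no larger than the 10.5% over all genes. The share called lower was above the background of 3.71%. With the trend removed 0 of the list passed, in a fit where only 11 of 13437 genes passed. Atp5d was at 186, 162 and 152 CPM against 247, 250 and 224 CPM (-0.53, -0.29 with the trend removed). Ndufa11 and Cox8a differed by -0.42 and -0.40, and by -0.20 and -0.19 with the trend removed. Ndufab1 rose by 0.76.

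Long non-coding RNAs that stay in the nucleus were higher too, in 4 of 8 tested and lower in 0 (median 1.34). Malat1, a nuclear speckle RNA (chromosome 19, 5795690 to 5802672), was at 1040, 795 and 669 CPM with stereotypy, 201.2, 313 and 305 CPM without and 851, 760 and 222 CPM in the controls. It rose by 1.61 (SE 0.42, limma adjusted p = 0.0373, 1.32 with the trend removed and 0.80 with the other-neuron covariate). Snhg11, which the annotation used lists as protein coding, was at 479, 304 and 205 CPM against 111, 90.4 and 99.7 CPM. Snhg14 rose by 1.29 (0.52 with the trend removed) and Mirg, named after its values were seen, by 1.13. Control replicate 1 was again the highest control for mt-Nd5, Malat1 and Snhg11, and control replicate 3 the lowest. Gm42418, which overlaps ribosomal RNA sequence, was the top gene of each library and held 1.75% to 3.54% of the reads with stereotypy and 1.29% to 1.80% without. Whether carry-over of RNA that is not on ribosomes has a part in these differences was not tested. Cytosolic ribosomal protein genes passed in 1 of 72, Rpl9 (2.49 CPM on average with stereotypy, uncertain since ribosomal protein genes have near-identical copies), and chaperones in 2 of 26, Dnajb4 (0.49, 0.23 with the trend removed) and Cryab (-1.76, -0.88 with the other-neuron covariate).

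Among genes outside those lists Dgkb, diacylglycerol kinase beta, which removes a second messenger of phospholipase C (chromosome 12, 37817726 to 38634239), was at 760, 1246 and 1360 CPM with stereotypy, 395, 355 and 341 CPM without and 694, 399 and 579 CPM in the controls. All 3 stereotypy libraries lay above the other 6. The rise was 1.58 (SE 0.23, limma adjusted p = 0.0152), 1.21 with the trend removed (0.0641), 1.57 with the glial and vascular covariate (0.0317) and 1.64 with the other-neuron covariate (0.0617). Etl4 and Asb2 rose by 1.33 and 1.54. The endothelial genes Ptprb and Adgrf5 rose by 2.03 and 1.58, each highest in stereotypy replicate 2, and Ptprb stood at 1.20 with the glial and vascular covariate. The largest falls after Slc17a7 and Cck were Ecel1, Hs3st2, Emx1 and Cryab (1.84 to 1.76), then Rtn4rl2, Ntsr1, Dkk3, Hapln4 and Rtn4r (1.75 to 1.67). Rtn4r and Rtn4rl2 are receptors for myelin inhibitors of axon growth, and Dkk3 is of the Dickkopf family. With the other-neuron covariate these 11 genes differed by -0.38 to -0.89. In cholesterol and fatty acid synthesis Mvk alone passed of 24 (-0.58, -0.38 with the trend removed). Of 16 sarcomere genes Casq2 rose by 1.44, and Myl4 and Myh3 differed by -1.74 and -1.56 (-0.30 and -0.88 with the other-neuron covariate).

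**Figure D4:**
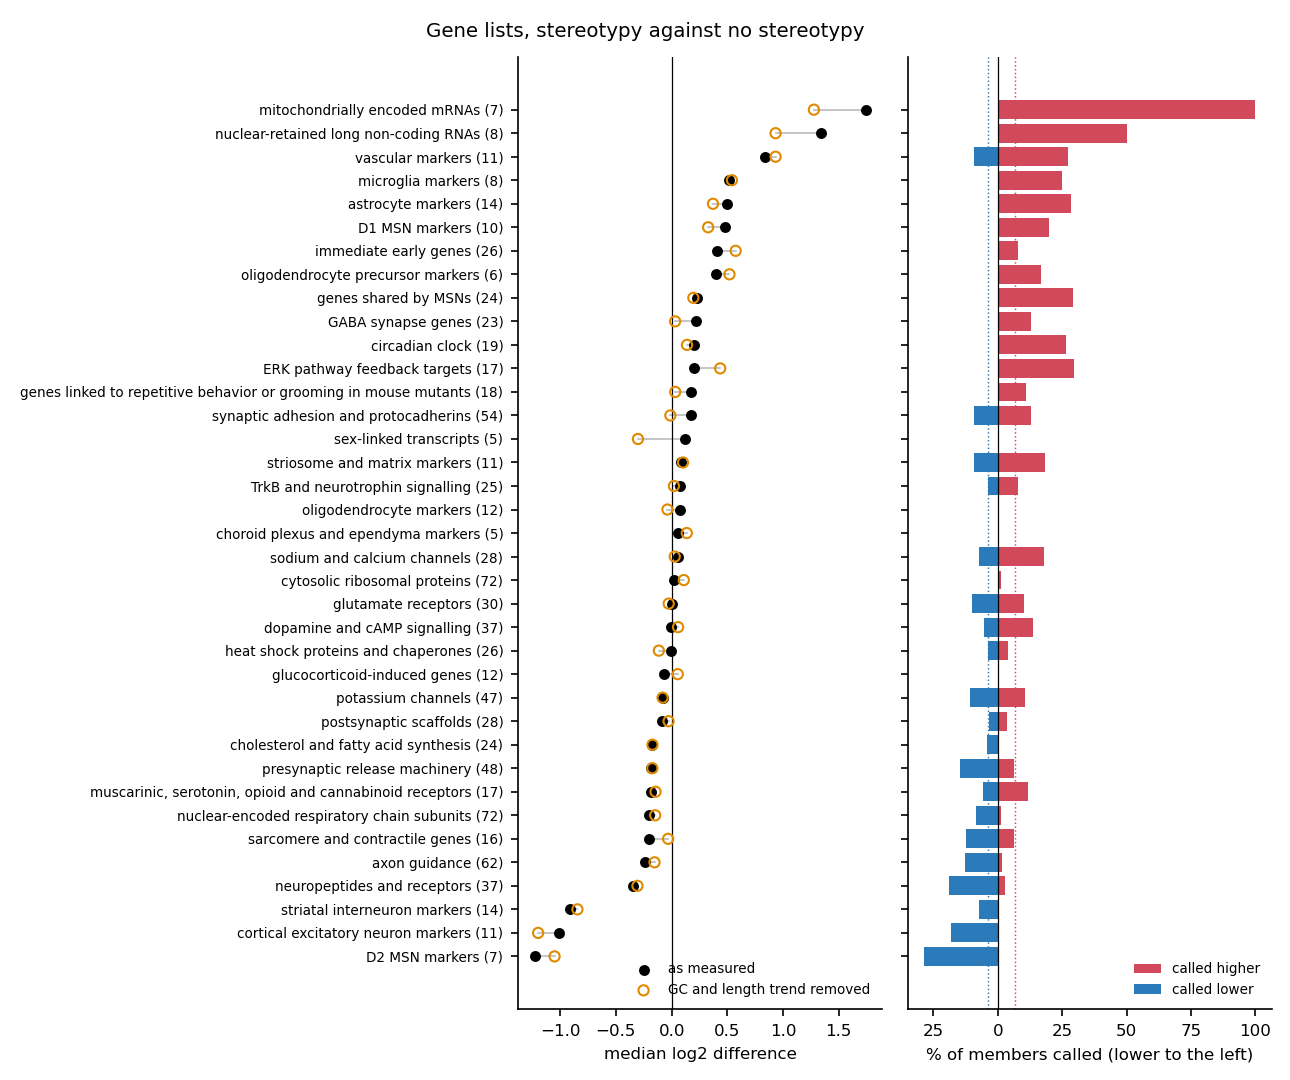
Gene lists with at least 5 tested members (number in brackets), ordered by their median log2 difference (left, black points), with the median after removal of the GC and length trend (open points). The right panel gives the percentage of members called higher (red) or lower (blue), with dotted lines at the background of 6.78% and 3.71%. Mitochondrial mRNAs (1.74) and nuclear RNAs (1.34) are at the top, and D2 MSN (-1.23) and cortical markers (-1.01) at the bottom.

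The difference between the groups ran with base composition over the whole transcriptome. Across 13437 genes with a transcript sequence, the Spearman correlation of the log2 difference with GC content was -0.58, and with transcript length 0.24. Genes share libraries and are not independent replicates, so no test is given. In the lowest of 10 groups by GC the median was 0.36, with 351 genes called higher and 0 lower, and in the highest -0.24, with 10 higher and 191 lower. Median GC content was 42.6% in genes called higher, 56.6% in those called lower and 49.6% in all. With the trend removed 11 genes were called, 5 higher and 6 lower (2565 at an unadjusted p under 0.05), all 11 also called without the removal. Of the called genes with a GC value 98.6% kept their sign. The median absolute difference of called genes went from 0.56 to 0.32.

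**Figure D5:**
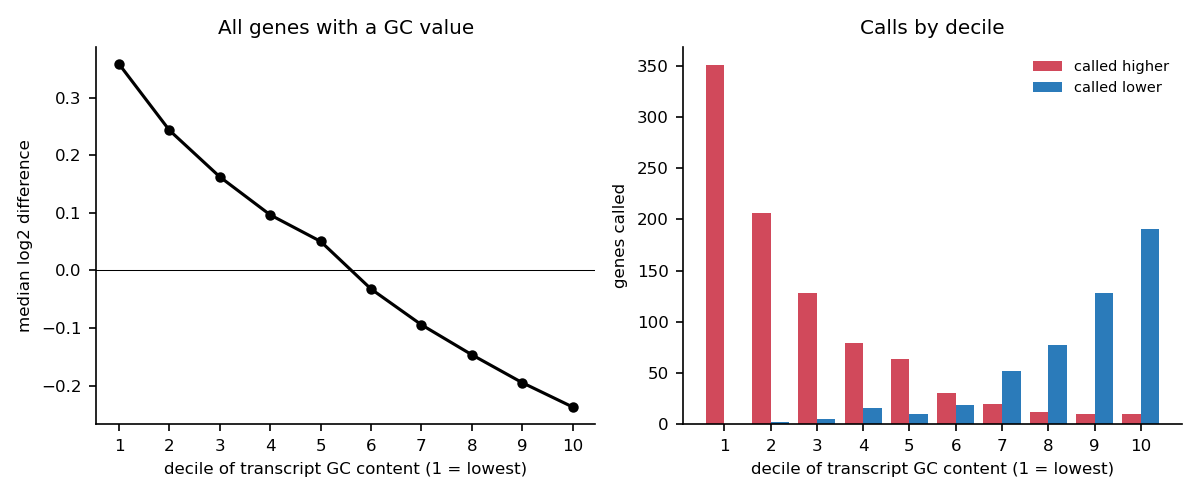
Genes in 10 groups of equal size by transcript GC content (x axes). The left panel shows the median log2 difference, which goes from 0.36 in the lowest to -0.24 in the highest group, and the right panel the number of genes called higher (red) and lower (blue).

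Vamp1 and Ccnd2 are among the 11, and the other 9 were named after their values were seen. Mbnl2, a splicing regulator, was at 226, 237 and 279 CPM with stereotypy against 144, 135 and 153 CPM, and Tjp1, a tight junction scaffold, at 50.6, 48.5 and 51.9 CPM against 27.7, 28.3 and 29.1 CPM. Zswim6 was at 126, 135 and 147 CPM against 78.0, 86.4 and 75.6 CPM. Lower with stereotypy were Thrsp, a regulator of lipid synthesis, at 2.79, 2.31 and 2.25 CPM against 8.32, 7.59 and 8.43 CPM, and Igfbp5, which binds insulin-like growth factors, at 38.5, 41.4 and 39.3 CPM against 67.2, 69.4 and 93.1 CPM. Dad1, Dctn2 and Syp were lower by 0.54, 0.46 and 0.63 in that fit. A ribosomal RNA entry, CT010467.1, was at 31.0, 56.4 and 46.7 CPM against 8.87, 10.1 and 4.68 CPM. In each of these genes the groups did not overlap.

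The position of the control mean was used to describe which TrkB-deleted group lay farther from it. Controls entered the fit only through the shared spread. Of 914 genes called higher the control mean lay between the groups in 313 (34.2%) nearer to stereotypy and in 414 (45.3%) nearer to no stereotypy, below both in 90 (9.85%) and above both in 97 (10.6%). Of 500 called lower these were 41.6%, 38.8%, 14.2% and 5.4%. Over all tested genes the control was between the groups in 19.8% and 21.2%, which such a call by itself raises, since called genes are those whose groups lie apart. Drd1, Grm5, Kcnj2, Vamp1 and Slit1 were genes with a control mean near the stereotypy mean. Stxbp3 had its control mean (5.82 ± 2.41 CPM) near that without stereotypy (7.72 ± 0.634 CPM) and far from that with it (22.7 ± 1.78 CPM, SD, n = 3 each). Ntrk2, Ccnd2, Spry2, Dusp6 and Per2 had control means above both.

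Promoters of the called genes were searched for 6 motifs, since genes that move together can share promoter elements. RefSeq promoters (GRCm38.p6, 250 bases before to 50 after the start) were matched by symbol for 673 genes called higher, 376 called lower and 9753 tested. On either strand, the ERK-responsive EGR motif GCGGGGGCG was present in 6.24%, 7.18% and 5.91% of them. The cAMP response element TGACGTCA was present in 3.86%, 3.99% and 3.42%, the clock-related E-box CACGTG in 11.3%, 8.24% and 10.4%, and the AP-1 site TGACTCA in 2.97%, 2.93% and 2.95%. The GC box GGGCGG, which the EGR motif can overlap, was in 66.9%, 67.6% and 65.9%, and the TATA box TATAAA in 5.65%, 6.38% and 6.48%. Shares were thus close to those of all tested genes. Promoter GC content had medians of 63.0%, 62.3% and 61.7%, so promoters did not divide by GC as the transcripts did. The 250 bases before the start are shown, 5′ to 3′ on the gene's strand, for 1 gene of the largest rises and 2 of the largest falls, with motif matches in capitals. They are Flt1 (chr5:147726012-147726261, minus strand), Slc17a7 (chr7:45163671-45163920, plus strand) and Cck (chr9:121495695-121495944, minus strand).
Flt1: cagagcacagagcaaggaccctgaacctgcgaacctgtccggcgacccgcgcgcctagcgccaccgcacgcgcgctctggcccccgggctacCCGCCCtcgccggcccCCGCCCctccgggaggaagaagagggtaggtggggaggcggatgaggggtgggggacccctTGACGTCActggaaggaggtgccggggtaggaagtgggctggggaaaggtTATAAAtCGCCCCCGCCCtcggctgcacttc
Slc17a7: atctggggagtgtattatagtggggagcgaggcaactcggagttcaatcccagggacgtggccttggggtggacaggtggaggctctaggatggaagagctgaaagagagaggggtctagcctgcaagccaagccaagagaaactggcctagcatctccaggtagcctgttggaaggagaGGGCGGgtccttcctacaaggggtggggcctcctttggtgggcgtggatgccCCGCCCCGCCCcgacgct
Cck: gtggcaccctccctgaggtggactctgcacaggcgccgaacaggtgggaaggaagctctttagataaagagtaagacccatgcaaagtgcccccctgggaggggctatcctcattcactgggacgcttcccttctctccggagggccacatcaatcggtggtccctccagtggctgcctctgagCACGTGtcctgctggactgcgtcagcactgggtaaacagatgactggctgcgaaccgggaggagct
The Flt1 window, at 70.4% GC, holds a cAMP response element, GC boxes, an EGR match that overlaps one of them, and a TATA box. Slc17a7 holds GC boxes only and Cck an E-box only. The promoters of Slco1a4 and Snhg11 (called higher) and Ecel1 (called lower), picked by the same rule and not printed, held 0 matches. A match describes letters and not a bound factor.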

How the data were processed

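RNA on HA-tagged ribosomes was sequenced in 9 libraries, 3 per group. The authors deposited 1 table per library in CPM. TopHat and GRCm38 are the aligner and build that the submitters' processing notes name. How reads were counted, with which annotation and whether by strand, is not given in the sources used here, so overlapping or antisense genes and close paralogs could share reads. All 47729 identifiers were read, and 99.1% matched GENCODE M21. In each library 100% of values were whole multiples of 1 read within 0.1 reads, so reads were recovered. A count of 0 allows 0.0739 to 0.111 CPM (3 reads), for counting error only.

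Members and gene lists were chosen with earlier results of these data known. All 9 libraries entered 1 limma fit (3.58.1, R 4.3.3) on log2(CPM + 1) with 3 group means, an intensity trend in the prior variance and 6 degrees of freedom for the residuals. P-values were adjusted by Benjamini-Hochberg over 13474 genes. edgeR 4.0.16 and DESeq2 1.42.0 on the recovered reads were alternatives. The scripts were tested on simulated data. Named genes were the 15 largest rises and 15 largest falls among called protein-coding genes with a mean of at least 5 CPM, no overlap between groups and no model symbol, plus Ntrk2 and up to 3 called members per direction and list (the most abundant marker where none was called). Some of these genes are not reported here. Members outside this rule, such as the defining markers that did not pass, were named after their values were seen. No 2 libraries agreed within sampling noise.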

Additional observations from a re-analysis of the deposited data

How the results depend on the processing

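The count of 1414 called genes (914 higher, 500 lower) moved by over 1.5 times, in total or in 1 direction, under these settings. It was 572 (419 and 153) without a filter on low levels, where 26238 genes were tested, and 4700 (2732 and 1968) with array weights. It was 415 (99 and 316) with the glial and vascular covariate, 2330 (1253 and 1077) with DESeq2 and 2014 (842 lower) with only the 6 TrkB-deleted libraries. Leaving out 1 library gave 0 to 1991 in total, 0 to 1217 higher and 0 to 774 lower. Of the alternatives chosen after seeing the data, the count was 0 (0 higher, 0 lower) with the other-neuron covariate and when replicate 3 of both groups was left out, and 11 (5 and 6) with the GC and length trend removed. The cause was not tested. Same-numbered libraries of the compared groups deviated together at 0.128, 0.018 and 0.045, and 2 of 3 stereotypy libraries correlated best with their own number. With the same-numbered controls these values were 0.169, -0.078 and 0.055 for stereotypy. For no stereotypy they were 0.072, 0.345 and 0.407. The labels do not state that the numbers pair mice, so the main fit took no pairs. With the replicate block the count was 1797, and with only the 6 libraries 1803. Of 120 named genes that were called, 0 were called under every alternative. That count was fixed in advance, since some alternatives called no gene at all. Grik2 reversed, to -0.0286 with the trend removed. Every other one kept its sign, which leaving out libraries could not change where the groups did not overlap. By edgeR 1 D1 marker and 1 gene linked to repetitive behavior were called higher, in place of 2 each. Each stereotypy library was shallower than each library without stereotypy, and no fit at matched depth was run.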
